A study of Mus musculus with 9 samples.

Results

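Long intergenic non-coding RNAs (lincRNAs) of mouse cardiac tissue were followed through 691 array probes whose names start with mouselincRNA, out of 59709 probes on the array apart from controls. The members were chosen by that name alone, on both strands. A name consists of a region number and a plus or minus sign for the strand, so the 691 probes cover 351 numbered regions. There were 343 plus and 348 minus probes, and 340 regions carried both. Each probe had 1 spot, and none was saturated on any array.

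The study compared cardiac RNA of 3 groups on 9 arrays, with 3 arrays per group. The WT and TAC arrays carry the strain label B6SV129F1 wild-type, and the TAC labels add surgery. TAC is the usual abbreviation of transverse aortic constriction, in which a narrowed aorta imposes a pressure load on the left ventricle. The labels do not spell it out and name no sham operation for WT, no age and no time after surgery. The CnA arrays carry the strain label Myh6-CnA, a name used for transgenic mice in which the Myh6 promoter, active in cardiomyocytes, drives calcineurin A. Calcineurin is a phosphatase that drives hypertrophic growth of the heart through NFAT factors. The background of the CnA strain is not stated, so the transgene and any strain difference from WT cannot be told apart. The labels give no animal identity, and p-values therefore measure the spread between arrays, which may be technical.

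LincRNAs are transcribed from stretches between protein-coding genes, are often spliced and polyadenylated, and are on average less abundant and more restricted to single tissues than messenger RNAs. Catalogues of mouse lincRNAs were first built from chromatin domains that carry a histone mark of promoters at one end and a mark of transcribed bodies over the rest. Several lincRNAs act in the heart, among them Braveheart in cardiac commitment and Myheart in hypertrophy. Probes to both strands of such a region read transcription in each direction separately. The files pair the mouselincRNA names with no gene, coordinates or sequence, and 0 of the 691 names matched a symbol of the RefSeq tables used. Members are therefore named by the file's region number, and whether they lie in chromatin domains was not examined.

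All values below are scaled log2 signals, meaning log2 of an array's processed signal minus the 75th percentile of that array. Before this scaling the 75th percentile was 427 to 453 intensity units in WT, 262 to 279 in TAC and 283 to 300 in CnA. After it, the lowest signal of any probe averaged -6.49 in WT, -5.98 in TAC and -6.21 in CnA. Per the file headers, the 3 WT arrays and TAC replicate 1 had positions in the same row. TAC replicates 2 and 3 and CnA replicates 1 and 2 had positions in a second row, with the same scan date. CnA replicate 3 had another scan date and the same position as WT replicate 1. Arrays of 1 scan date were taken as 1 slide, so CnA replicate 3 counts as another slide. No slide row held both WT and CnA arrays. A fit with the slide row as a block, used below as an alternative, compares TAC replicate 1 alone with the WT arrays. It compares CnA replicates 1 and 2 with TAC replicates 2 and 3. CnA replicate 3, alone in its row, adds to no comparison there. Calls kept or lost under that block therefore rest on fewer arrays than the main fit. The tissue label could not be checked by markers, since 0 of 44 listed marker genes of cardiac and other cell types were among the 116 probes that an accession named.

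The mouselincRNA probes were detected less often than the array's probes as a whole. On a single array 55.0% to 63.7% of them were well above background, against 67.6% to 77.3% of all probes. The share was 56.2%, 58.9% and 60.4% on the WT arrays, 63.7%, 55.0% and 58.2% on the TAC arrays, and 59.4%, 59.4% and 62.8% on the CnA arrays. These ranges overlap between the groups, and TAC replicates 1 and 2 had the highest and the lowest share. Of the probes without an outlier spot, 333 (48.3%) were detected on all 9 arrays, against 61.9% of all probes. Another 179 (26.0%) were detected on no array, against 14.0% of all probes, and 177 were detected on 1 to 8 arrays. All 3 arrays of a group detected 365 members in WT, 357 in TAC and 375 in CnA.

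**Figure D1:**
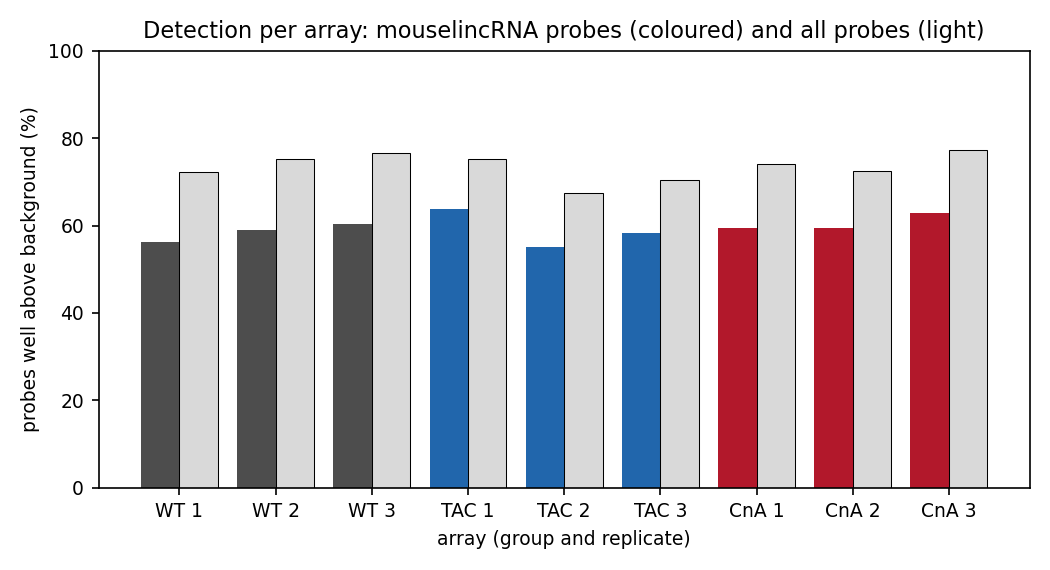
Share of probes well above background (vertical axis, percent) on each of the 9 arrays (horizontal axis), for the mouselincRNA probes (coloured by group) and for all probes (light bars). On every array the mouselincRNA share, at 55.0% to 63.7%, lies below that of all probes, at 67.6% to 77.3%.

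Testing required detection on every array of some group, a condition met by 403 members, 200 on the plus and 203 on the minus strand. The 403 were 58.3% of the members, while 74.2% of all probes passed. The other members were 286 probes that no group detected on 3 arrays and 2 probes with an outlier spot. Even among those tested, signals were low, and 147 (36.5%) were brighter than all 20 negative control probes on every array of a group, against 54.1% of all tested probes. The median SD of the tested members within a group was 0.22 in WT, 0.14 in TAC and 0.23 in CnA.

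In TAC against WT, the mouselincRNA probes that changed mostly rose. Of the 403 tested, 191 (47.4%) were called at a limma adjusted p under 0.05, a smaller share than the 60.2% of all tested probes. Rises made up 171 of them, or 42.4% of the members tested, close to the 39.7% of all tested probes that rose. Falls made up 20, or 4.96%, against 20.5% of all tested probes. Only 31 reached 2-fold (7.69% against 27.2%), with 30 rises (7.44% against 14%) and 1 fall (0.248% against 13.2%). Values of the groups did not overlap for 241 members (59.8%, against 69.1% of all tested probes). Because this is bulk tissue, a lower signal from fewer cells of a type cannot be told apart from less RNA per cell.

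The median log2 fold change was 0.46 over the tested members and 0.32 over all tested probes. Relative to this shift of the whole array, 170 of the 191 called members (89.0%) lay above it and 21 below, against 64.6% above among all called probes. The calls were made against no change, so this split nearly repeats that of rises and falls. No member was tested against the shift. Rises and falls were spread over both strands, with 82 rises and 7 falls among plus probes and 89 rises and 13 falls among minus probes. The 147 members brighter than all negative controls gave 66 rises (44.9%, against 46.5% of all tested probes as bright) and 17 falls (11.6% against 24.5%), with a median change of 0.41 against 0.33. The 256 dimmer ones gave 105 rises (41.0%, against 31.6% of all tested probes as dim) and 3 falls (1.17% against 15.7%), with a median of 0.48 against 0.30. Falls were thus a smaller share at both brightness levels, a difference that was not tested. The scaled floor of the array was also higher in TAC than in WT, and its part in the rises of dim probes was not tested. With the slide row as a block 97 members were called. Shares of all tested probes are not given for this and the other alternative settings below. A changed count can therefore not be read as particular to the members. Within the row that WT shared with TAC replicate 1, all 191 called members differed in the direction of the fit, which itself includes that array.

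**Figure D2:**
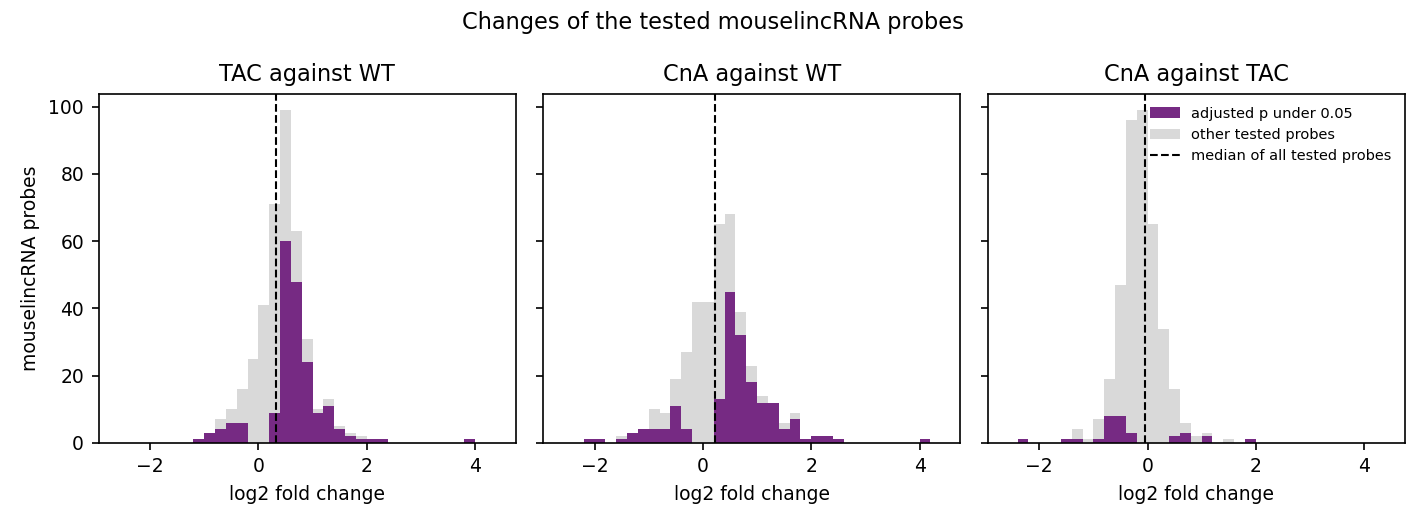
Number of tested mouselincRNA probes (vertical axis) by log2 fold change (horizontal axis) in each comparison, with called probes in purple, other probes in grey and the median of all tested probes as a dashed line. Most of the 191 calls of TAC and the 183 of CnA against WT lie right of that line, while 23 of the 31 calls of CnA against TAC lie left of it.

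The members with the largest rises in TAC, among called probes detected in both groups with no overlap, included bright and dim regions. mouselincRNA1437+ was at 5.48, 5.87 and 5.74 on the WT arrays, 7.24, 7.25 and 7.26 on the TAC arrays and 7.85, 7.80 and 7.83 on the CnA arrays. The 3 groups did not overlap, and the TAC arrays lay within a few hundredths of each other. Its rise in TAC was 2.92-fold, a log2 fold change of 1.55 (SE 0.11, limma adjusted p = 1.2e-05), and 1.23 beyond the shift of all probes. mouselincRNA1250- was at 1.05, 0.75 and 0.94 on the WT arrays, 2.34, 2.31 and 2.36 on the TAC arrays and 1.69, 1.84 and 1.38 on the CnA arrays. TAC was highest on every array and CnA lay between TAC and WT, with log2 fold changes of 1.42 (SE 0.14, limma adjusted p = 5.4e-05) in TAC and 0.72 (SE 0.14, limma adjusted p = 0.0025) in CnA. mouselincRNA0086- was at 1.21, 0.60 and 0.81 on the WT arrays, 2.29, 2.46 and 1.95 on the TAC arrays and 1.95, 2.01 and 2.71 on the CnA arrays. Both models lay above every WT array and overlapped each other, and the log2 fold change in TAC was 1.36 (SE 0.25, limma adjusted p = 0.0018).

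Dimmer regions followed. mouselincRNA0744+ measured -2.68, -3.13 and -3.08 in WT and -1.53, -1.57 and -1.75 in TAC, without overlap, a rise of 1.34 (SE 0.15, limma adjusted p = 0.00012). mouselincRNA0508- measured -3.31, -3.44 and -2.99 in WT and -2.09, -2.14 and -1.75 in TAC, a rise of 1.25 (SE 0.20, limma adjusted p = 0.00084). Under normexp background these dim probes rose less, by 0.89 and 0.80. For 3 more the size of the rise turned on the spread of the WT arrays. mouselincRNA1298+ was at -2.10, -2.15 and -4.09 in WT and -1.28, -1.52 and -1.45 in TAC, mouselincRNA0563+ at -1.95, -1.91 and -3.47 and -1.16, -1.18 and -1.06, and mouselincRNA1278- at -1.40, -2.82 and -2.78 and -0.86, -0.89 and -1.21. In each of them 1 or 2 WT arrays lay more than 1 log2 unit below the others. Their log2 fold changes were 1.36 (SE 0.47, limma adjusted p = 0.033), 1.31 (SE 0.38, limma adjusted p = 0.016) and 1.35 (SE 0.38, limma adjusted p = 0.016). The call of mouselincRNA1298+ was lost without any 1 TAC array (adjusted p 0.067 to 0.086 in limma), and that of mouselincRNA1278- without WT replicate 2 or 3 (adjusted p 0.057 and 0.051 in limma). Without WT replicate 3 the rises of mouselincRNA1298+ and mouselincRNA0563+ were 0.71 and 0.80, still called. All 3 calls were lost with the slide row as a block.

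The falls in TAC were smaller. mouselincRNA0158- was at 4.15, 4.01 and 3.83 on the WT arrays, 3.10, 3.11 and 2.86 on the TAC arrays and 2.50, 2.62 and 3.05 on the CnA arrays. Both models lay below all WT arrays and overlapped each other, and TAC fell by 0.97 on the log2 scale (SE 0.17, limma adjusted p = 0.0013). mouselincRNA0305- was at 4.60, 4.45 and 4.32 on the WT arrays, 3.69, 3.51 and 3.42 on the TAC arrays and 2.80, 3.04 and 2.77 on the CnA arrays. The 3 groups stood apart in the order WT, TAC, CnA, and TAC fell by 0.91 on the log2 scale (SE 0.13, limma adjusted p = 0.00042). mouselincRNA1188- was at 6.35, 6.37 and 6.27 on the WT arrays, 5.46, 5.37 and 5.44 on the TAC arrays and 4.63, 4.97 and 3.58 on the CnA arrays. It was lowest on CnA replicate 3, and its fall in TAC by 0.90 on the log2 scale (SE 0.30, limma adjusted p = 0.031) was lost without any 1 WT or TAC array (limma adjusted p 0.058 to 0.078), although the WT and TAC values were tight.

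The other falls named by the rule were at most 0.71 on the log2 scale. mouselincRNA1284+ was at 2.40, 2.31 and 2.20 on the WT arrays, 1.46, 1.72 and 1.66 on the TAC arrays and 1.04, 0.88 and 1.13 on the CnA arrays, which gave 3 separate groups and a fall in TAC by 0.69 on the log2 scale (SE 0.12, limma adjusted p = 0.0012). mouselincRNA1606- was at 4.87, 4.69 and 4.67 in WT and 4.19, 4.11 and 3.99 in TAC, a fall by 0.65 on the log2 scale (SE 0.16, limma adjusted p = 0.0079). mouselincRNA1533- fell by 0.65 on the log2 scale (SE 0.14, limma adjusted p = 0.0041) and mouselincRNA0538+ by 0.56 on the log2 scale (SE 0.12, limma adjusted p = 0.0041), both without overlap. mouselincRNA1623- was at -0.53, 0.04 and 0.31 in WT and -0.72, -0.80 and -0.78 in TAC, and its fall by 0.71 on the log2 scale (SE 0.23, limma adjusted p = 0.025) was lost without WT replicate 2 or 3 or any TAC array (limma adjusted p 0.055 to 0.076). Of the 16 probes named for TAC against WT, 11 stayed called with the slide row as a block.

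**Figure D3:**
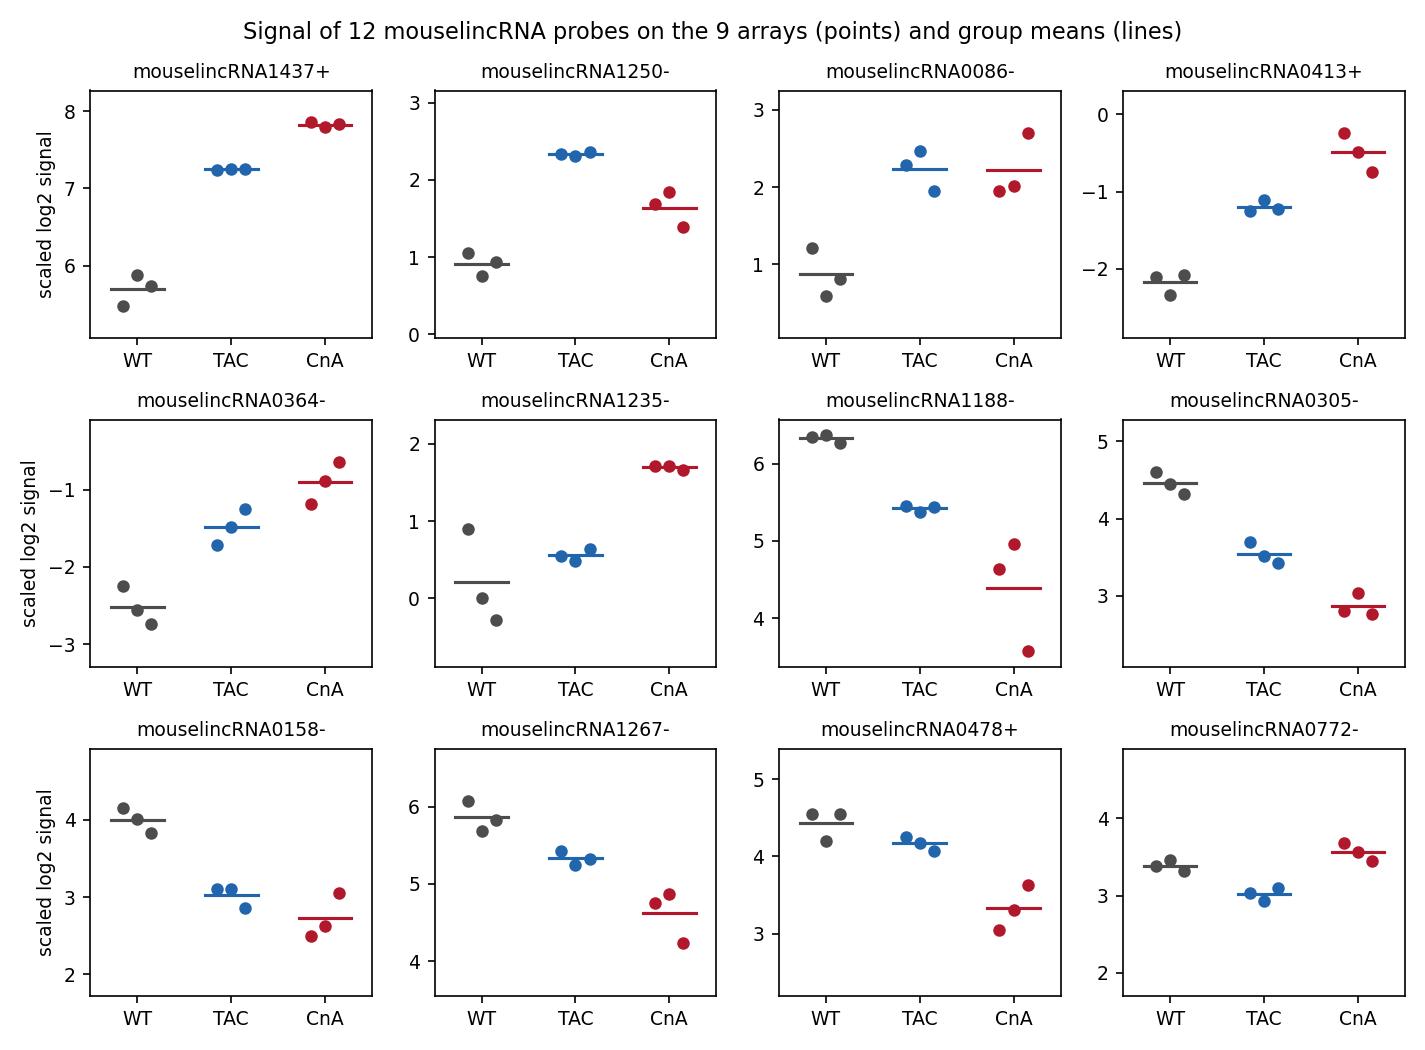
Scaled log2 signal (vertical axis) of 12 mouselincRNA probes on the 3 arrays of WT, TAC and CnA (points), with group means as lines, each panel spanning the same range. mouselincRNA1437+ rises from 5.48 to 5.87 in WT to 7.80 to 7.85 in CnA, and mouselincRNA1188- falls from at least 6.27 in WT to at most 4.97 in CnA.

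In CnA against WT the pattern was again mostly of rises. This comparison shares the WT arrays with the one above, so agreement between them is not a separate result and values are given side by side. Of the 403 members, 183 (45.4%) were called, against 56.7% of all tested probes. Rises numbered 150 (37.2% against 36.2%) and falls 33 (8.19% against 20.5%). At 2-fold or more 52 were called (12.9% against 25.3%), with 42 rises (10.4% against 13.9%) and 10 falls (2.48% against 11.4%), and values did not overlap for 202 members (50.1% against 62.4%). The median log2 fold change was 0.33, against 0.22 over all tested probes. Relative to that shift 150 called members lay above and 33 below, which put 82.0% above against 63.8% among all called probes. The calls were again made against no change, so this split repeats that of rises and falls. On the authors' deposited table the calls were 104 rises and 42 falls, and under quantile normalization 112 rises and 43 falls.

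The plus strand gave 73 rises and 16 falls in CnA and the minus strand 77 and 17. Among the 147 bright members 52 rose (35.4%, against 42.0% of all bright probes tested) and 26 fell (17.7% against 25.3%). Among the 256 dim ones 98 rose (38.3% against 29.3%) and 7 fell (2.73% against 15%). No member was called in opposite directions in TAC and CnA, and 170 of the 403 were called in neither. With the slide row as a block, which links WT to CnA only through the TAC arrays, 28 members were called.

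The largest CnA rise under the naming rule was again mouselincRNA1437+, at 4.37-fold and a log2 fold change of 2.13 (SE 0.11, limma adjusted p = 3.5e-06), and 1.91 beyond that shift. mouselincRNA0413+ was at -2.10, -2.34 and -2.08 on the WT arrays, -1.25, -1.11 and -1.23 on the TAC arrays and -0.25, -0.49 and -0.75 on the CnA arrays. The 3 groups did not overlap, and the log2 fold changes were 1.68 (SE 0.14, limma adjusted p = 3.5e-05) in CnA and 0.98 (SE 0.14, limma adjusted p = 0.00057) in TAC. mouselincRNA0364- followed with 1.61 (SE 0.19, limma adjusted p = 0.00021) in CnA and 1.03 (SE 0.19, limma adjusted p = 0.0021) in TAC. mouselincRNA0293+ was at -3.06, -3.28 and -2.84 on the WT arrays, -2.34, -2.17 and -2.15 on the TAC arrays and -1.28, -1.65 and -1.47 on the CnA arrays. It too showed 3 separate groups and a CnA log2 fold change of 1.59 (SE 0.15, limma adjusted p = 5.3e-05).

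mouselincRNA1235- showed another order. It was at 0.90, 0.01 and -0.29 on the WT arrays, 0.55, 0.49 and 0.64 on the TAC arrays and 1.71, 1.72 and 1.66 on the CnA arrays. WT and TAC overlapped and all CnA arrays stood above both, which gave 1.49 (SE 0.26, limma adjusted p = 0.0016) as the log2 fold change of CnA and 0.35 (SE 0.26, limma adjusted p = 0.27) in TAC. mouselincRNA0508- was at -2.04, -1.58 and -1.40 in that model, with a log2 fold change of 1.57 (SE 0.20, limma adjusted p = 0.00028). mouselincRNA1054- rose by 1.38 (SE 0.23, limma adjusted p = 0.0013) and mouselincRNA0086- by 1.35 (SE 0.25, limma adjusted p = 0.0020), each without overlap with WT. Each rise named here for CnA stayed called when any 1 array was left out, while the slide row as a block ended the calls of mouselincRNA0364-, mouselincRNA0508-, mouselincRNA1235-, mouselincRNA1054- and mouselincRNA0086-.

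The largest CnA fall under the naming rule was that of mouselincRNA1188-, by 1.94 on the log2 scale (SE 0.30, limma adjusted p = 0.00088), or 3.83-fold. Its values per array are given above and its SD in CnA was 0.73, against 0.05 in WT. mouselincRNA0305- fell by 1.59 on the log2 scale (SE 0.13, limma adjusted p = 2.5e-05), mouselincRNA1284+ by 1.29 on the log2 scale (SE 0.12, limma adjusted p = 4.7e-05) and mouselincRNA0158- by 1.27 on the log2 scale (SE 0.17, limma adjusted p = 0.00034). Each of these regions also had a called fall in TAC, with the smaller size given above. mouselincRNA1267- was at 6.08, 5.69 and 5.83 on the WT arrays, 5.43, 5.25 and 5.33 on the TAC arrays and 4.75, 4.88 and 4.23 on the CnA arrays, with a CnA fall by 1.25 on the log2 scale (SE 0.18, limma adjusted p = 0.00059) and no overlap between any of the groups.

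mouselincRNA0478+ was at 4.54, 4.20 and 4.54 on the WT arrays, 4.25, 4.18 and 4.07 on the TAC arrays and 3.05, 3.31 and 3.63 on the CnA arrays. TAC overlapped WT while every CnA array lay below both, and CnA fell by 1.10 on the log2 scale (SE 0.17, limma adjusted p = 0.00073) where TAC had -0.26 (SE 0.17, limma adjusted p = 0.21). mouselincRNA1606- was at 3.42, 3.57 and 4.01 in CnA and fell by 1.08 on the log2 scale (SE 0.16, limma adjusted p = 0.00063). mouselincRNA1623- was at -0.92, -0.93 and -1.45 and fell by 1.04 on the log2 scale (SE 0.23, limma adjusted p = 0.0048). All the falls named for CnA stayed called when any 1 array was left out. Of the 16 rises and falls, 9 stayed called with the slide row as a block, and mouselincRNA1267- and mouselincRNA1623- were the falls that did not.

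Over the 3 groups together, limma's F test called 207 of the 403 members (51.4%, against 64.4% of all tested probes). The models were compared directly in CnA against TAC, where few members differed. Of 403 tested, 31 (7.69%) were called, against 17.4% of all tested probes. CnA was higher for 8 (1.99% against 10.5%) and lower for 23 (5.71% against 6.98%). At 2-fold or more 6 were called (1.49% against 6.29%), with 3 higher (0.744% against 4.69%) and 3 lower (0.744% against 1.6%) in CnA, and values did not overlap for 132 members (32.8% against 46.2%). The median log2 fold change was -0.14 over the members and -0.05 over all tested probes. The count depended on single arrays, from 9 calls without TAC replicate 2 to 49 without WT replicate 1, with 13 without TAC replicate 1, 12 without TAC replicate 3 and 18 without CnA replicate 1. With the slide row as a block 7 were called, and within the row that held TAC replicates 2 and 3 and CnA replicates 1 and 2 all 31 differed in the direction of the fit, which itself includes those 4 arrays.

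Members higher in CnA than in TAC were mouselincRNA1235- with a log2 fold change of 1.14 (SE 0.26, limma adjusted p = 0.021), mouselincRNA0293+ with 0.75 (SE 0.15, limma adjusted p = 0.010), mouselincRNA1512- with 0.71 (SE 0.20, limma adjusted p = 0.042), mouselincRNA0413+ with 0.70 (SE 0.14, limma adjusted p = 0.013) and mouselincRNA1437+ with 0.58 (SE 0.11, limma adjusted p = 0.010). mouselincRNA0772- was at 3.38, 3.46 and 3.31 on the WT arrays, 3.03, 2.93 and 3.10 on the TAC arrays and 3.68, 3.56 and 3.44 on the CnA arrays. It fell in TAC, by 0.36 on the log2 scale (SE 0.10, limma adjusted p = 0.016), and CnA overlapped WT and stood above TAC by 0.54 (SE 0.10, limma adjusted p = 0.0092). Among these the calls of mouselincRNA1235- and mouselincRNA1512- were lost without any 1 TAC array (limma adjusted p 0.057 to 0.14), and mouselincRNA0413+ without TAC replicate 1 (limma adjusted p = 0.053). mouselincRNA1235- also lost its call without any 1 CnA array, and mouselincRNA1512- without WT replicate 2 or 3 or CnA replicate 1 or 2.

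Members lower in CnA than in TAC were led by mouselincRNA0158+, the plus probe of a region whose minus probe fell in both models. It was at -2.40, -2.58 and -1.46 on the WT arrays, -1.80, -1.67 and -1.74 on the TAC arrays and -2.66, -2.70 and -3.84 on the CnA arrays. TAC was tight and CnA lay below it on every array, by 1.33 on the log2 scale (SE 0.37, limma adjusted p = 0.042), a call that was lost without any 1 TAC or CnA array (limma adjusted p 0.059 to 0.12). mouselincRNA0478+ differed by -0.84 (SE 0.17, limma adjusted p = 0.011) and mouselincRNA1250-, which had risen more in TAC, by -0.70 (SE 0.14, limma adjusted p = 0.010). mouselincRNA0305- was lower in CnA by 0.68 on the log2 scale (SE 0.13, limma adjusted p = 0.0086). These last 3 kept their calls without any 1 array.

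mouselincRNA1631+, mouselincRNA1267-, mouselincRNA1425- and mouselincRNA1052+ completed the rule's list, at -0.76, -0.72, -0.69 and -0.69. Their limma adjusted p values were 0.025, 0.029, 0.039 and 0.025. Each of these 4 lost its call without single arrays of TAC or CnA, among them TAC replicate 2 for all 4 (limma adjusted p 0.074 to 0.12). Of the 14 members named for this comparison, mouselincRNA1512-, mouselincRNA0413+, mouselincRNA0478+ and mouselincRNA1052+ stayed called with the slide row as a block.

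The plus and minus probes of a region were then compared with each other. Both strands were tested in 119 of the 340 regions that carry both, only the plus strand in 79, only the minus strand in 83 and neither in 59. In TAC against WT both strands rose in 25 regions, 1 strand was called in 56, none in 34, and the strands were called in opposite directions in 4. In CnA both strands rose in 22 regions and fell in 1, 1 strand was called in 49, none in 42, and 5 regions had opposite calls. In CnA against TAC 1 strand was called in 19 regions and none in 100. The same counts are not given for the other strand pairs of the array, so they describe these regions only. Across the 119 regions the log2 fold changes of the strands had a Pearson r of 0.13 for TAC, 0.06 for CnA and -0.09 between the models, with Spearman rho of 0.15, 0.08 and -0.04. The regions share the arrays, so these are descriptions only.

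Whether the strands changed unequally was tested on the plus minus minus difference of each array. In TAC against WT 14 regions (11.8%) passed at an adjusted p under 0.05, against 26.7% of the 1286 strand pairs tested. Those pairs were drawn from the lincRNA-named families of the array and from its probes of ultraconserved regions. For CnA the count was 25 (21.0% against 32.7%), and between the models it was 4 (3.36% against 4.43%). Where both strands were detected on all arrays of both groups, 12 of 90 regions passed for TAC, 16 of 88 for CnA and 1 of 89 between the models. No such share is given for the other strand pairs of the array. With the slide row as a block 1, 5 and 0 of the 119 regions passed. Without single TAC arrays the count for TAC against WT was 6 to 9.

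**Figure D4:**
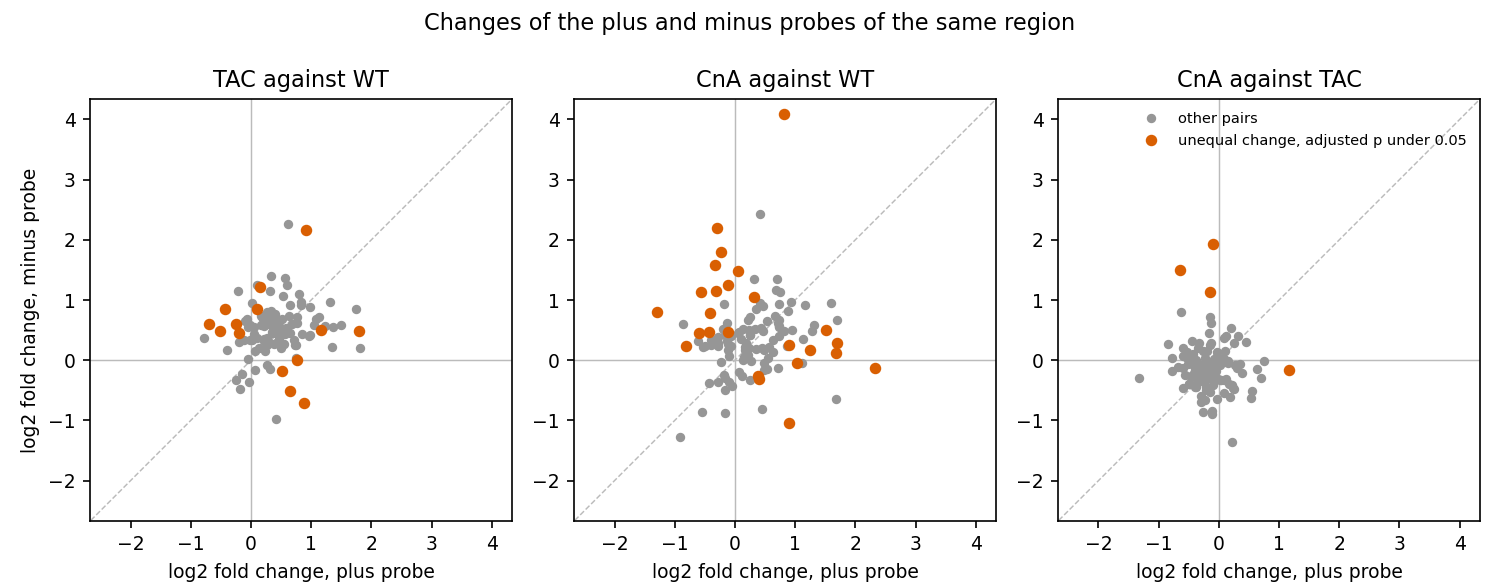
Log2 fold change of the plus probe (horizontal axis) and of the minus probe (vertical axis) of the 119 regions with both strands tested, with regions of unequal change in orange, the line of equal change dashed and 1 panel per comparison. Points spread widely around that line, with 14 orange regions for TAC, 25 for CnA and 4 between the models.

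Among the regions with opposite calls, mouselincRNA1284 had the smallest limma adjusted p of the strand difference in each model. Its plus probe fell in both models, as given above. Its minus probe was at -3.00, -3.26 and -3.24 on the WT arrays, -2.46, -2.80 and -2.44 on the TAC arrays and -2.61, -2.25 and -2.22 on the CnA arrays. That probe was dim and rose without overlap, by 0.60 (SE 0.16, limma adjusted p = 0.010) in TAC and 0.81 (SE 0.16, limma adjusted p = 0.0027) in CnA. Dim tested members had a median change of 0.48 in TAC and 0.37 in CnA, and a rise beyond these medians was not tested. The strand difference changed by -1.29 in TAC (SE 0.22, limma adjusted p = 0.0030) and -2.09 in CnA (limma adjusted p = 0.00024).

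In the mouselincRNA1623 region the plus probe was at -0.79, -1.35 and -1.23 on the WT arrays, -0.38, -0.09 and -0.27 on the TAC arrays and -0.25, -0.45 and 0.01 on the CnA arrays. It rose by 0.88 (SE 0.18, limma adjusted p = 0.0033) in TAC and 0.89 (SE 0.18, limma adjusted p = 0.0033) in CnA while the minus probe fell. The strand difference changed by 1.58 in TAC (SE 0.38, limma adjusted p = 0.014), a call lost without TAC replicate 2 (limma adjusted p = 0.056), and by 1.93 in CnA (limma adjusted p = 0.0047). In the mouselincRNA0453 region the plus probe was at 2.26, 2.20 and 2.25 on the WT arrays, 1.84, 1.82 and 1.79 on the TAC arrays and 1.67, 1.61 and 1.76 on the CnA arrays, and the minus probe at -2.98, -3.13 and -3.01 on the WT arrays, -2.42, -2.01 and -2.15 on the TAC arrays and -2.49, -1.64 and -1.58 on the CnA arrays. The plus probe fell by 0.43 on the log2 scale (SE 0.09, limma adjusted p = 0.0032) in TAC and by 0.56 on the log2 scale (SE 0.09, limma adjusted p = 0.00082) in CnA, while the minus probe rose by 0.85 (SE 0.24, limma adjusted p = 0.015) and 1.13 (SE 0.24, limma adjusted p = 0.0040). The strand difference changed by -1.27 in TAC (limma adjusted p = 0.0080) and -1.70 in CnA (limma adjusted p = 0.0016). The rise of this low minus probe was likewise not tested against the median change of dim members. Opposite calls were also made for the mouselincRNA0077 region in TAC and for the 0155 and 1511 regions in CnA. Of the 14 strand differences picked by the naming rule over the comparisons, 4 stayed called with the slide row as a block, those of 1284 in both models and of 0941 and 0152 in CnA against WT.

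Some strand differences came from a probe near the detection limit. For mouselincRNA0941- the signal was -6.25, -6.58 and -6.65 on the WT arrays, -4.38, -4.45 and -4.16 on the TAC arrays and -2.63, -1.93 and -2.64 on the CnA arrays. It was not well above background on any WT or TAC array and was detected on all 3 CnA arrays. Set against the lowest processed signal that counts as detected, CnA was at least 3.40-fold higher than WT and at least 2.38-fold higher than TAC. The fitted changes had limma adjusted p = 2.9e-06 and 0.00061, which do not test these bounds. The probe entered the test only through CnA, so those p values are not separate support. The plus probe of the region was at -2.93, -3.02 and -4.15 on the WT arrays, -2.58, -2.39 and -2.36 on the TAC arrays and -2.62, -2.56 and -2.47 on the CnA arrays, close in TAC and CnA. The fitted strand difference changed by -3.27 in CnA (SE 0.32, limma adjusted p = 0.00016) and by -2.03 in CnA against TAC (adjusted p = 0.0077 by limma). Its size rests on a minus probe that the control group of each comparison did not detect, and under normexp background the differences were -0.80 and -0.61. No size is given for TAC against WT, since neither group detected the minus probe.

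In the mouselincRNA0152 region the plus probe was at -6.06, -5.16 and -5.60 on the WT arrays, -3.68, -4.09 and -3.63 on the TAC arrays and -3.07, -3.57 and -3.18 on the CnA arrays. No WT array, 1 TAC array and all CnA arrays detected it, so that CnA was at least 1.86-fold higher than WT on the processed signal. It entered the test only through CnA, so the p values of this region's strand differences are not separate support. The fitted strand differences, set against a WT signal that was not well above background, changed by 1.32 in TAC (limma adjusted p = 0.012) and 2.47 in CnA (limma adjusted p = 0.00050). Under normexp background they were 0.27, no longer called, and 0.65, and the call in TAC was also lost without TAC replicate 3 (limma adjusted p = 0.053). The remaining regions of the rule were mouselincRNA1244 and 1106 in CnA against WT, at -2.50 and -2.02 (limma adjusted p = 0.022 and 0.014). In CnA against TAC they were mouselincRNA1106, 0344 and 1235, at -2.15, 1.33 and -1.29 (limma adjusted p = 0.044, 0.039 and 0.034). No WT array and 1 TAC array detected mouselincRNA1106-, and no WT or TAC array detected mouselincRNA0344+. Both probes entered the test only through CnA, so the p values of their regions are not separate support. The fitted sizes for these regions rest on signals not well above background. Under normexp background they were -0.83 and -0.73 for 1106 and 0.27, no longer called, for 0344. The 1244 change was lost without WT replicate 1 or CnA replicate 3 (limma adjusted p 0.055 and 0.069), and those of CnA against TAC for 1106, 0344 and 1235 were each lost without WT replicate 2 and without several TAC or CnA arrays. The mouselincRNA0543 region, named because it was the single region with a called fall on both strands, went from 0.89, 0.90 and 0.98 in WT to 0.36, 0.38 and 0.38 in CnA on the plus strand and from 3.25, 2.99 and 3.20 to 2.06, 2.22 and 2.60 on the minus strand, both without overlap. Its CnA log2 fold changes were -0.55 (SE 0.09, limma adjusted p = 0.00090) and -0.85 (SE 0.16, limma adjusted p = 0.0024), and neither call held with the slide row as a block.

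Members detected on all arrays of 1 group and on none of another were counted. The share of all probes in the same state is not given, so the counts describe the members only. CnA detected 7 members on all 3 arrays that no WT array detected, and 3 of these had a bound of at least 2-fold. Beside mouselincRNA0941- they were mouselincRNA0953+, at least 2.83-fold higher, and mouselincRNA1106-, at least 2.05-fold higher in CnA. WT detected 4 members that no CnA array detected, and of these mouselincRNA0010+ was at least 1.44-fold higher in WT on the processed signal. Its fitted change had limma adjusted p = 0.0079, which does not test that bound and is not separate support for a probe that CnA did not detect. The differences of mouselincRNA1279- and mouselincRNA0002- were not called (limma adjusted p = 0.69 and 0.29), and their sign turned under normexp background and with the slide row as a block, so no fold is given for them. CnA detected 3 members that no TAC array detected, mouselincRNA0941-, mouselincRNA1099- and mouselincRNA0344+. The difference of mouselincRNA1099- was not called (limma adjusted p = 0.069), with a bound of at least 1.28-fold. For mouselincRNA0344+ the bound was at least 1.17-fold, and its fitted change had limma adjusted p = 0.018. That probe entered the test only through CnA, so this p value is not separate support. Under normexp background the fitted CnA change of mouselincRNA0010+ was -0.19 in place of -2.01 and that of mouselincRNA0344+ against TAC was 0.13 in place of 1.17, neither still called. Both are smaller than the bounds given, which hold for the processed signal only. The call of mouselincRNA1106- was lost under quantile normalization. Between TAC and WT no member was detected on all arrays of one and none of the other.

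Other lincRNA families of the array are given for comparison, without a test of the difference. Of 671 tested probes named humanlincRNA, 49.3% were called for TAC and 44.0% for CnA, each against WT, and 7.15% between the models. Of 2416 tested probes named MM9LINCRNAEXON the shares were 53.7%, 49.6% and 11.9%. Falls in TAC made up 5.22% and 9.77% of the probes of these families, against 4.96% of the mouselincRNA probes.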

How the data were processed

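Cardiac total RNA was measured on 9 one-colour Agilent arrays, 3 per group. Column-purified RNA was freed of ribosomal RNA and copied into fluorescent cRNA from random primers, per the labels' protocols. Per the file headers, Feature Extraction 11.0 gave each spot a processed signal, a linear intensity already corrected for background, and the build named is mm9. The labels name a second dye, but the deposited scanner files hold 1 channel. The authors also deposited a table of log2 values, whose making is not stated, which was used as an alternative and lists 390 of the members.

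Processed signals were scaled to each array's 75th percentile and taken to log2. Control spots, the 20 negative control probes and 130 probes with an outlier flag, 2 of them members, were left out. The 44224 probes well above background on all 3 arrays of a group were fitted with limma 3.58.1 in R 4.3.3 (lmFit and eBayes, all 9 arrays, 1 coefficient per group), with Benjamini-Hochberg adjustment over all of them and a threshold of 0.05. Strand differences were fitted the same way over 1286 pairs. A bound for a probe detected in 1 group only sets the bright group's mean against the mean, over the dim arrays, of the higher of the lowest detected signal and the probe's own. It holds for the processed signal and not for another background correction. Fits were tested on simulated data. The small number of arrays limited precision.

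The text names the 8 largest rises and 8 largest falls per comparison among called members detected on all arrays of both groups without overlap, the 5 largest unequal strand pairs and the 3 largest bounds. Other probes were named after their values were seen. The members and lists were chosen with earlier results of these data known. Alternatives covered background correction, normalization, filters, the deposited table, the replicate number and the slide row as blocks, array weights, thresholds and single-array omissions.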

Additional observations from a re-analysis of the deposited data

How the results depend on the processing

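Each called change of a named member or strand pair kept its direction under the alternatives run. Counts of called members that moved beyond 1.5 times are given for TAC against WT, CnA against WT, CnA against TAC and the F test over the groups, whose main counts were 191, 183, 31 and 207. The slide row as a block gave 97, 28, 7 and 73, with unequal strand pairs of 1, 5 and 0 from 14, 25 and 4; the cause was not tested. A 2-fold minimum gave 31, 52, 6 and 54, and an unadjusted p with a 2-fold minimum 35, 55, 11 and 60, by construction of the threshold. The WT spread as the error gave 97, 89, 1 and 77. Requiring signals above all negative controls, an alternative chosen after seeing the data, tested fewer probes and gave 88, 82 and 100 for the first pair and the F test. Normexp background gave 293 in TAC against WT and 7 strand pairs in CnA against TAC. Array weights gave 93 and a fit of only the groups compared gave 51 in CnA against TAC. The cause of these changes was not tested, and the shares of all tested probes called under these settings are not given. Counts with the slide row as a block also rest on fewer arrays, as stated above. The other settings run kept their counts within 1.5 times, apart from the replicate block and single arrays below.

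The replicate number as a block gave 161 and 154 calls against WT, 16 in CnA against TAC, and 7, 17 and 2 unequal strand pairs. Arrays with the same number did not deviate together, with correlations of -0.22 to -0.02 between them. No pairing by number showed, but so few arrays cannot exclude one.

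Leaving out single arrays gave 134 to 205 calls in TAC against WT, 139 to 174 in CnA against WT, 9 to 49 in CnA against TAC and 156 to 211 in the F test, and 6 to 20, 21 to 25 and 1 to 4 unequal strand pairs. The number of members detected on the remaining arrays was 372 to 383 in WT, 358 to 390 in TAC and 384 to 390 in CnA. Quantile normalization gave 155, 155 and 41 calls and the deposited values gave 152, 146 and 38. Of the named results, 444 comparisons with an alternative kept their side of the threshold and 81 lost it, 40 of them with the slide row as a block. For omissions of single arrays only the least favourable 1 per result was counted, and 23 results lost their call there. Normexp background made 32 of 75 called named changes smaller by over 1.5 times, with a median ratio of 0.755 to the values given, and lost 5 calls. Reversals concerned mouselincRNA1279- and mouselincRNA0002-, detected in WT but not in CnA, whose uncalled CnA log2 fold changes of -0.13 and -0.87 became 0.31 and 0.18 with normexp, 0.12 and 0.055 with the slide row as a block, and 0.035 and 0.024 without CnA replicate 3, and that of the first also 0.09 without WT replicate 2. Low signal limits the 256 dim members and the 286 not tested.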

Other observations

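Probes that the naming rule left out, because a group did not detect them on all arrays, held larger fitted changes, and those given here were picked for their values. mouselincRNA1555- was at -6.25, -6.28 and -4.30 on the WT arrays, -1.77, -1.95 and -1.68 on the TAC arrays and -4.34, -3.24 and -4.93 on the CnA arrays. All TAC arrays, 1 WT array and 1 CnA array detected it, and every TAC value lay above every WT and CnA value. The fitted log2 fold changes were 3.81 (SE 0.58, limma adjusted p = 0.00067) for TAC against WT and -2.37 for CnA against TAC (limma adjusted p = 0.026, lost without any 1 TAC array or CnA replicate 1 or 3), and 1.47 and -0.82 under normexp background. Their size is uncertain, since most WT and CnA values were not well above background, and CnA overlapped WT. The probe entered the test only through TAC, so the p values of mouselincRNA1555- are not separate support. mouselincRNA1223- was at -2.06, -1.67 and -5.20 on the WT arrays, -0.73, -1.04 and -0.36 on the TAC arrays and -0.62, -0.48 and -0.56 on the CnA arrays. WT replicate 3 lay far below the other arrays, and the log2 fold changes were 2.27 (SE 0.79, limma adjusted p = 0.036) in TAC and 2.42 (SE 0.79, limma adjusted p = 0.030) in CnA, each lost without any 1 array of its model group (without WT replicate 3 they were 1.16 and 1.31, still called) and with the slide row as a block.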
